A study of Caenorhabditis elegans with 8 samples.

Results

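The genes described here encode the contractile machinery of nematode muscle and the structures that anchor it. They are 42 Caenorhabditis elegans genes for thick and thin filaments, troponins, dense bodies and calcium handling, out of 18293 genes counted in both deposited sheets. They were chosen by gene name from a written list and not by any measured value, and each was counted as the sum of its transcripts. The list was drawn up with earlier results of these data known. All 42 had reads in all 8 libraries, from 15 to 37610 reads per library, and all 42 passed the filter on low counts that left 15848 genes for testing.

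RNA sequencing was done on total RNA from whole adult worms of 2 strains at 2 ages. Strain N2 served as wild type, and strain MT15501 is a mutant of the microRNA gene mir-83; the allele is not given in the labels. Worms of both strains grew at 20 °C on agar plates with FuDR, a drug that stops progeny production, and were collected at adult day 4 or day 12, so every group carries that treatment. Each of the 4 groups (N2 day 4, N2 day 12, mir-83 day 4 and mir-83 day 12) held 2 libraries, called replicates 1 and 2, and the study's title concerns lifespan and target gene expression at different ages. A microRNA is a short RNA that represses transcripts carrying a matching site; mir-83 itself was not analysed here.

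In body wall muscle, myosin thick filaments interleave with actin thin filaments, and thin filaments are anchored in dense bodies, which reach through integrin attachments to the basement membrane and cuticle. Calcium released from the sarcoplasmic reticulum binds troponin C, and the troponin and tropomyosin on the thin filament then let myosin pull. The pharynx, the feeding organ, has muscle cells of its own with separate myosin heavy chain and troponin genes. Nematode body wall muscle is known to lose sarcomere order as the animals age.

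Depth was 20.3 to 41.2 M reads per library. Values are CPM, read counts relative to the reads of the library, scaled with TMM factors, which correct for a few genes taking many reads; mir-83 day 4 had factors of 0.644 and 0.596, and the other libraries 1.08 to 1.23. The labels of replicate 1 carry a run code that is the same for N2 and mir-83 at one age and another at the other age, so age and run code cannot be told apart there; replicate 2 has no code. Across genes the replicates of a group correlated at 0.949 to 0.975, except those of mir-83 day 12, at 0.894. In that pair replicate 1 was most like N2 day 12 replicate 1, at 0.975, and replicate 2 was most like N2 day 4 replicate 2, at 0.952. Those N2 libraries were in turn less like their own replicates, at 0.958 for N2 day 12 and 0.949 for N2 day 4. Of the 42 muscle genes, 20 were over 2-fold higher in mir-83 day 12 replicate 2 than in replicate 1. The same count was not made over all genes. Values by library are therefore given for part of the muscle genes and for summed levels. For the other genes, fold changes from both libraries together are given. The labels do not tell whether the replicates are separate cultures, and the p-values therefore cover the spread between these libraries, which may be technical.

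The muscle genes took their largest share of the reads in the mir-83 worms at day 4. Their summed level was 5411 and 5979 CPM at day 4 in N2 (replicates 1 and 2) and 22705 and 18988 CPM at day 4 in mir-83. At day 12 it was 3875 and 3016 CPM in N2 and 2834 and 3130 CPM in mir-83. Both mir-83 day 4 libraries stood above all others, and the 2 strains overlapped at day 12. As plain shares of the reads, with no TMM factor, the sums were 0.629% and 0.644% for N2 at day 4, 1.46% and 1.13% for mir-83 at day 4, 0.448% and 0.371% for N2 at day 12, and 0.34% and 0.381% for mir-83 at day 12. In whole-worm RNA, fewer muscle cells and less muscle RNA per cell cannot be told apart.

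**Figure D1:**
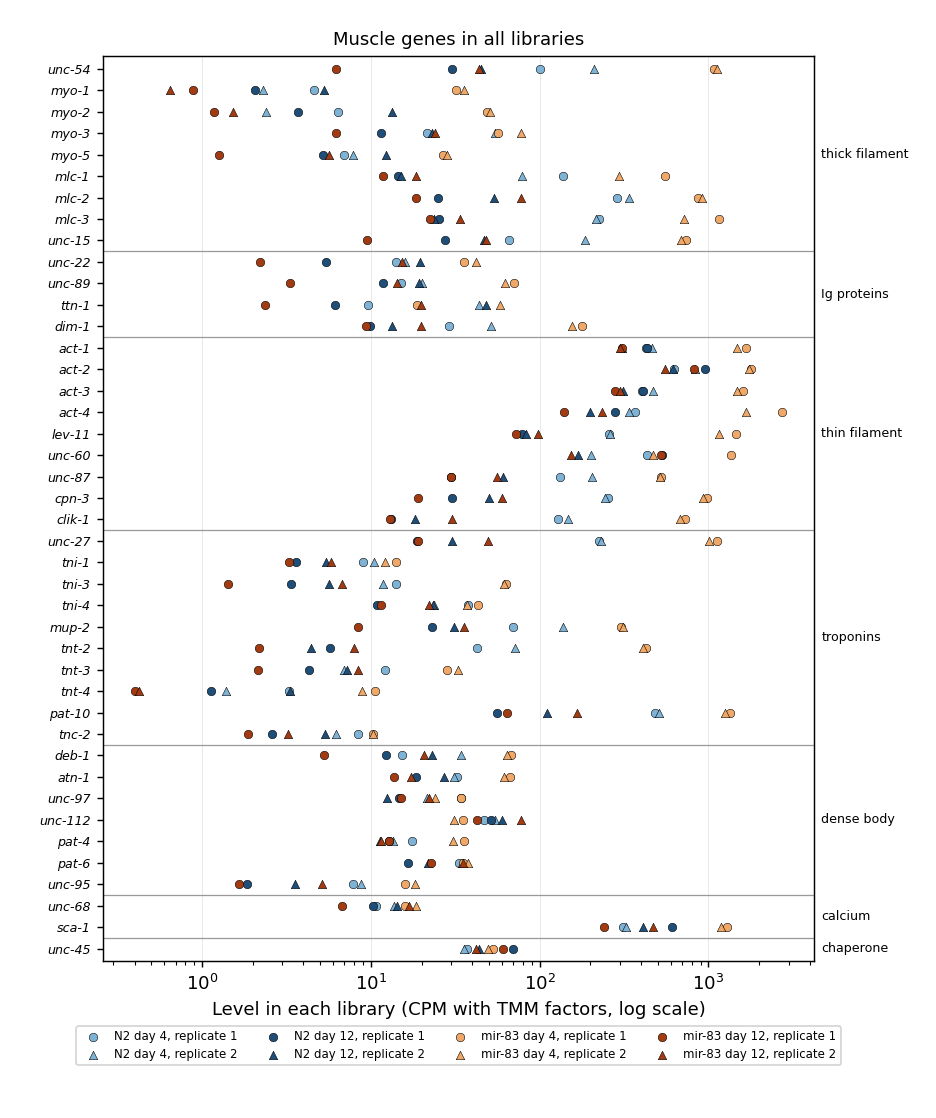
Level of each of the 42 muscle genes, grouped by role, in TMM-scaled CPM on a log axis; each point is 1 library, with circles for replicate 1, triangles for replicate 2 and a colour for each of the 4 groups. For unc-54 the mir-83 day 4 libraries sit at 1083 and 1119 CPM, above the N2 day 4 libraries at 100 and 210.3 CPM.

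At day 4, 18 of the 42 muscle genes were higher in mir-83 than in N2 (42.9%), none was lower, and 24 did not pass (quasi-likelihood test of edgeR, p adjusted by Benjamini-Hochberg, threshold 0.05). Of all 15848 genes tested, 4.44% passed in the higher direction and 2.63% in the lower. The 18 genes rose by 1.43 to 3.46 on the log2 scale, with adjusted p from 0.0211 to 0.0383. The median log2 fold change of the 42 was 1.70, beside -0.14 over all genes, and it was 1.96 within replicate 1 and 1.51 within replicate 2. Both mir-83 libraries lay above both N2 libraries for 38 genes and below them for 1, unc-112, while 29.5% of all genes lay above and 35.4% below. With plain library sizes the median of all genes was -0.99 and that of the muscle genes 0.86. Scaling shifts all genes nearly alike, so their distance, 1.85 beside 1.84 with TMM, could hardly change. With plain library sizes 12 genes were higher (1.33% of all genes) and unc-112 was lower (24.1% of all genes).

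The calls at day 4 rest on all 4 libraries compared. With any 1 of them left out, edgeR kept none of its muscle calls and almost none of its calls over all genes. The lone library of a group is then assumed to vary like the others. Without mir-83 day 12 replicate 1 or replicate 2, which are in neither group compared and share only the fit, 28 were higher each time, beside 8.72% and 8.65% of all genes. DESeq2 called 30 muscle genes higher, beside 9.5% of all genes in that direction, and edgeR without the block for the replicate number called 9, beside 1.29%.

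**Figure D2:**
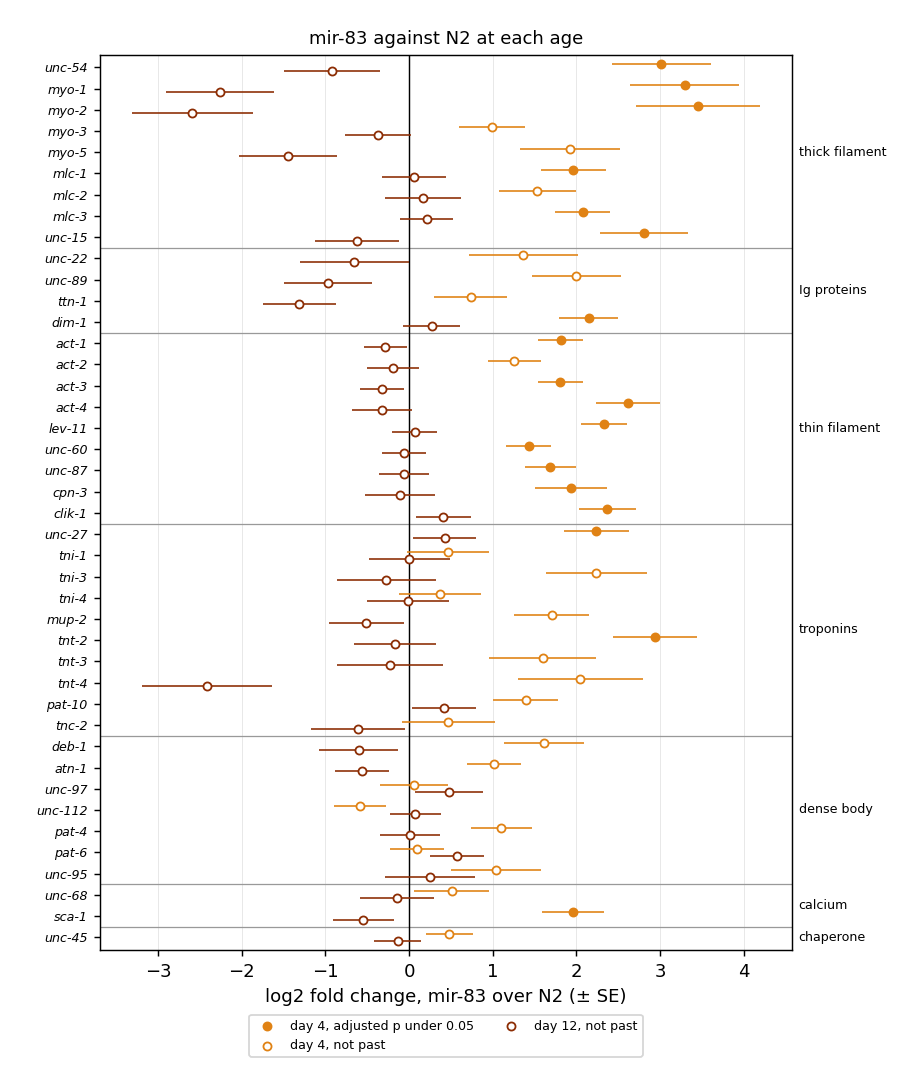
Log2 fold change of mir-83 over N2 with its standard error for all 42 genes, grouped by role, at day 4 and at day 12; filled points passed an adjusted p of 0.05. At day 4, 18 points are filled, and at day 12 none is.

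Thick filament genes held the 3 largest changes at day 4, in myo-2, myo-1 and unc-54, with 6 of 9 higher and a median log2 fold change of 2.08. unc-54 encodes the main myosin heavy chain of body wall muscle, and it read 100 and 210.3 CPM at day 4 in N2 and 1083 and 1119 in mir-83, and 30.3 and 44.9 at day 12 in N2 and 6.25 and 43.9 in mir-83. The mir-83 day 4 libraries were the highest, and the lowest was mir-83 day 12 replicate 1. At day 4 unc-54 was higher in mir-83 by 3.02 ± 0.59 (log2, SE; edgeR adjusted p = 0.0296).

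myo-2 encodes a myosin heavy chain of the pharynx. It read 6.43 and 2.39 CPM at day 4 in N2 and 48.6 and 51.2 in mir-83, and 3.72 and 13.3 at day 12 in N2 and 1.19 and 1.53 in mir-83. Its day 4 change, 3.46 ± 0.74 (adjusted p = 0.0356), was the largest of the 42, with myo-1, the other pharyngeal heavy chain, at 3.29 ± 0.65. The groups did not overlap at either age, with mir-83 above N2 at day 4 and below it at day 12.

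myo-3 encodes the minor heavy chain of body wall muscle, which sits in the middle of the thick filament. It read 21.6 and 54.1 CPM at day 4 in N2 and 56.6 and 77.4 in mir-83, and 11.5 and 23.2 at day 12 in N2 and 6.20 and 23.9 in mir-83. The day 4 groups lay close without overlapping, and the change of 0.99 ± 0.40 did not pass (adjusted p = 0.158). The ratio of unc-54 to myo-3 reads was 4.62 and 3.89 at day 4 in N2 and 19.1 and 14.5 in mir-83, and 2.63 and 1.94 at day 12 in N2 and 1.01 and 1.83 in mir-83. So the heavy chain mix in the reads leaned most to unc-54 in both mir-83 day 4 libraries.

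Light chains bind the neck of the myosin head. mlc-2, for a regulatory light chain, read 287 and 340.0 CPM at day 4 in N2 and 869.6 and 914 in mir-83, and 25.1 and 53.9 at day 12 in N2 and 18.5 and 77.9 in mir-83. mlc-3, for the essential light chain, read 225 and 217 CPM at day 4 in N2 and 1154 and 715 in mir-83, and 25.3 and 23.8 at day 12 in N2 and 22.6 and 33.9 in mir-83. Both strains were lower at day 12 than at day 4 in every library of these genes. At day 4 mlc-3 rose by 2.08 ± 0.33 in mir-83 (adjusted p = 0.0219) and mlc-1, the other regulatory light chain, by 1.96 ± 0.39. mlc-2 at 1.53 ± 0.46 did not pass (adjusted p = 0.0792). The ratio of mlc-2 to mlc-1 reads was 1.55 to 2.10 in replicate 1 libraries and 3.10 to 4.31 in replicate 2 libraries. How reads were split between mlc-1 and mlc-2 is therefore uncertain. Summed, they read 424 and 419 CPM at day 4 in N2 and 1420 and 1208 CPM in mir-83. unc-15, for paramyosin, the core of the thick filament, rose by 2.81 ± 0.53. myo-5, a further myosin heavy chain gene, was at 1.92 ± 0.59 and did not pass.

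Of the 4 genes for large or immunoglobulin-domain proteins, 1 was higher at day 4. dim-1, for an immunoglobulin-domain protein of body wall muscle, read 29.3 and 51.7 CPM at day 4 in N2 and 179 and 157 in mir-83, and 9.85 and 13.5 at day 12 in N2 and 9.38 and 19.8 in mir-83. It rose by 2.15 ± 0.35 (adjusted p = 0.0224) at day 4, with no overlap. unc-89, for the obscurin-like protein of the M-line, read 15 and 20.0 CPM at day 4 in N2 and 70.5 and 62.7 in mir-83, and 11.8 and 19.4 at day 12 in N2 and 3.31 and 14.3 in mir-83. Its day 4 groups were also apart, but 2.00 ± 0.53 did not pass (adjusted p = 0.0604). ttn-1, for a titin-like protein, read 9.65 and 43.8 CPM at day 4 in N2 and 18.9 and 58.1 in mir-83, and 6.16 and 47.9 at day 12 in N2 and 2.37 and 19.8 in mir-83. Its ratio between replicates was larger than that between the strains at both ages, and replicate 2 was higher in all 4 groups. unc-22, for twitchin, a giant kinase of the thick filament, was at 1.37 ± 0.65 and did not pass.

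Of the thin filament genes 8 of 9 were higher at day 4, with a median log2 fold change of 1.81. act-4, an actin gene on chromosome X (WBcel235, 4960621 to 4964413), read 370 and 337 CPM at day 4 in N2 and 2724 and 1659 in mir-83, and 278 and 199.8 at day 12 in N2 and 139.8 and 234 in mir-83. It rose by 2.62 ± 0.38 in mir-83 at day 4 (adjusted p = 0.0211). act-1, one of 3 actin genes that lie together on chromosome V (11081052 to 11082415), read 429 and 462 CPM at day 4 in N2 and 1674 and 1465 in mir-83, and 434 and 309 at day 12 in N2 and 306 and 299.9 in mir-83. It rose by 1.81 ± 0.27 (adjusted p = 0.0211), and act-3 beside it also by 1.81 ± 0.27. These actin genes are near-identical copies, and the ratio of act-1 to act-3 reads was 0.979 to 1.10 in every library, so how reads were split between them is uncertain. Summed, act-1 and act-3 read 832 and 933 CPM in N2 day 4 and 3273 and 2938 CPM in the mutant. How far reads were also shared with act-2 and act-4 was not tested. All 4 of these actin genes summed to 1825 and 2101 CPM at day 4 in N2 and 7780 and 6331 CPM in mir-83.

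act-2, the last actin gene of the chromosome V group, read 623 and 830.4 CPM at day 4 in N2 and 1784 and 1733 in mir-83, and 949 and 619 at day 12 in N2 and 818 and 553 in mir-83. The mir-83 day 4 libraries were the highest, yet 1.26 ± 0.32 missed the threshold (adjusted p = 0.0536). Among the thin filament regulators, lev-11, for tropomyosin, rose by 2.33 ± 0.28, and clik-1, for a protein with calponin-like repeats, by 2.37 ± 0.34. cpn-3, of the calponin family, rose by 1.94 ± 0.43, and unc-87, for an actin-bundling protein with calponin-like repeats, by 1.69 ± 0.30. unc-60, for the actin-severing cofilins, rose by 1.43 ± 0.27, the smallest change among the 18.

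Of the troponin genes 2 of 10 were higher at day 4, and the median log2 fold change of the 10 was 1.65. unc-27, for a body wall troponin I, read 225 and 232 CPM at day 4 in N2 and 1127 and 1003 in mir-83, and 18.7 and 30.1 at day 12 in N2 and 19 and 49.2 in mir-83. tnt-2, for a troponin T, read 42.8 and 71.9 CPM at day 4 in N2 and 425 and 410.2 in mir-83, and 5.75 and 4.44 at day 12 in N2 and 2.18 and 8.02 in mir-83. These 2 passed, at 2.24 ± 0.39 (adjusted p = 0.0257) and 2.94 ± 0.50 (adjusted p = 0.0246). pat-10, for the body wall troponin C, read 486 and 513 CPM at day 4 in N2 and 1337 and 1257 in mir-83, and 56.2 and 111 at day 12 in N2 and 63.7 and 166 in mir-83. Its 2 day 4 groups were apart, but 1.40 ± 0.39 did not pass (adjusted p = 0.0653).

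tni-4 encodes the troponin I of the pharynx, and it read 37.5 and 23.6 CPM at day 4 in N2 and 43.3 and 37 in mir-83, and 10.9 and 23.3 at day 12 in N2 and 11.5 and 22.2 in mir-83. The strains overlapped at both ages, and the day 4 change was 0.37 ± 0.49. The other pharyngeal troponin genes were at 0.47 ± 0.56 for tnc-2 (troponin C) and 2.05 ± 0.74 for tnt-4 (troponin T), neither past the threshold. The remaining troponin genes, tni-1, tni-3, mup-2 and tnt-3, were between 0.47 and 2.24 and did not pass. Genes of the pharynx thus ranged from 0.37 to 3.46 at day 4; they were grouped in this way after their values were seen, and no test was made of the grouping.

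No dense body or attachment gene of 7 passed at day 4 in edgeR. The median log2 fold change of the 7 was 1.02 with TMM. As plain shares of the reads, their sums were lower in mir-83 at day 4, at 0.0187% and 0.016%, beside 0.0218% and 0.0214% in N2. deb-1, for vinculin, which links actin to the attachment, read 15.4 and 34.5 CPM at day 4 in N2 and 68.1 and 64.6 in mir-83, and 12.4 and 23 at day 12 in N2 and 5.31 and 20.7 in mir-83. atn-1, for alpha-actinin of the dense body, read 32.6 and 31.0 CPM at day 4 in N2 and 66.7 and 61.9 in mir-83, and 18.6 and 27.2 at day 12 in N2 and 13.7 and 17.3 in mir-83. In both genes the mir-83 day 4 libraries were the highest, at changes of 1.61 ± 0.48 (adjusted p = 0.0787) and 1.01 ± 0.32 (adjusted p = 0.0919).

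unc-112, for kindlin, which sits at the integrin tail, was the only member with both mir-83 day 4 libraries below N2. It read 46.8 and 54.6 CPM at day 4 in N2 and 35.2 and 31.3 in mir-83, and 51.9 and 59.9 at day 12 in N2 and 42.7 and 77.8 in mir-83. The change of -0.59 ± 0.31 did not pass (adjusted p = 0.265) with TMM. Its partners at the integrin tail were at 1.10 ± 0.36 for pat-4 (integrin-linked kinase), 0.09 ± 0.33 for pat-6 (parvin) and 0.06 ± 0.41 for unc-97 (PINCH), none past the threshold. unc-95, for a LIM domain protein of the dense body, was at 1.04 ± 0.54 and did not pass.

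Of the 2 calcium genes 1 was higher at day 4. sca-1, for the pump that returns calcium to the sarcoplasmic reticulum, read 313 and 326 CPM at day 4 in N2 and 1292 and 1185 in mir-83, and 604 and 410.2 at day 12 in N2 and 239 and 467 in mir-83. It rose by 1.96 ± 0.37 (adjusted p = 0.0274). unc-68, for the ryanodine receptor that releases the calcium, read 10.8 and 13.7 CPM at day 4 in N2 and 16.1 and 18.5 in mir-83, and 10.4 and 14.4 at day 12 in N2 and 6.79 and 16.9 in mir-83. Its change of 0.51 ± 0.44 did not pass. unc-45, for the chaperone that folds myosin heads, read 37.2 and 35.8 CPM at day 4 in N2 and 52.6 and 49.6 in mir-83, and 69.6 and 43.8 at day 12 in N2 and 60.6 and 42.2 in mir-83. At 0.48 ± 0.28 it did not pass, and its 8 libraries lay closer together than those of any myosin named above.

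Levels of different genes can be set side by side only per length. Per kilobase of coding sequence, the most abundant messages in N2 day 4 were pat-10 at 1033 CPM per kb, act-2 at 644 and mlc-2 at 615, leaving out unc-60, whose annotation is described below. The least abundant were ttn-1 at 0.586 and myo-1 at 0.594 CPM per kb. In mir-83 day 4, pat-10 was at 2686 CPM per kb, cpn-3 at 2238, mlc-3 at 2036 and act-4 at 1943.

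At day 12 no muscle gene passed between the strains, and no gene of the 15848 did (0% in each direction) in edgeR. DESeq2 called 0 of the 42, beside 0.0126% of all genes in each direction. The changes in edgeR ran from -2.59 to 0.57 with a median of -0.18, beside -0.03 over all genes. Within replicate 1 the median was -0.48 and within replicate 2 it was 0.08. Without mir-83 day 12 replicate 1 the fitted median was 0.15, and without replicate 2 it was -0.68, so its sign depends on which library of that group is kept.

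Both mir-83 day 12 libraries lay above both N2 day 12 libraries for 2 muscle genes, unc-97 and pat-6, and below them for 6, beside 5.51% and 8.22% of all genes. The 6 were myo-1, myo-2, tnt-4, act-1, act-3 and atn-1. The pharyngeal genes myo-1, myo-2 and tnt-4 had the largest differences. Also of the pharynx, tni-4 was at -0.01 ± 0.49 and tnc-2 at -0.61 ± 0.56, with overlapping libraries. Counts were low: in mir-83 day 12, myo-1 had 33 and 32 reads and tnt-4 had 15 and 21. myo-1 read 2.08 and 5.29 CPM in N2 day 12 and 0.889 and 0.646 in mir-83 day 12, a difference of -2.26 ± 0.64. tnt-4 read 1.13 and 3.33 CPM in N2 day 12 and 0.404 and 0.424 in mir-83 day 12, a difference of -2.42 ± 0.78. With myo-2 at -2.59 ± 0.72, all had an adjusted p of 0.9998 in edgeR.

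Between day 4 and day 12 in N2, 11 of the 42 muscle genes fell (26.2%) and none rose. Of all genes, 2.4% fell and 2.11% rose in edgeR. The 11 changes ran from -3.40 to -1.68, with adjusted p from 0.0224 to 0.0353. The median of the 42 was -0.89, beside -0.09 over all genes, and was -1.29 within replicate 1 and -0.63 within replicate 2. Both day 12 libraries lay below both day 4 libraries for 24 genes and above them for 2, sca-1 and unc-45, while 30.1% of all genes lay below and 29.5% above.

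Of the thick filament genes 3 of 9 fell, all light chains, with mlc-3 at -3.17 ± 0.34 and mlc-2 at -3.12 ± 0.49. The heavy chains did not pass; unc-54 was at -1.95 ± 0.57 (adjusted p = 0.0844) and myo-2 at 0.84 ± 0.72. Of the troponin genes 3 of 10 fell, with tnt-2 at -3.40 ± 0.52, unc-27 at -3.28 ± 0.41 and pat-10 at -2.67 ± 0.41. Of the thin filament genes 4 of 9 fell, and these were clik-1 at -3.15 ± 0.35, cpn-3, unc-87 and lev-11. The 4 actin genes lay between -0.57 and 0.07 and none passed. dim-1 was the eleventh gene, at -1.76 ± 0.34. No gene for the dense body, calcium handling or the chaperone passed in edgeR, where sca-1 was at 0.68 ± 0.36 and unc-45 at 0.60 ± 0.28.

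These calls depend on 3 of the 4 N2 libraries. Without N2 day 4 replicate 1, N2 day 12 replicate 1 or N2 day 12 replicate 2, edgeR kept none of its muscle calls and almost none over all genes. Without N2 day 4 replicate 2 it called 10, beside 2.62% of all genes lower. Without mir-83 day 12 replicate 1 or replicate 2 it called 17 each time, beside 7.07% and 6.82%, and DESeq2 called 16, beside 9.38% of all genes lower in DESeq2. Without the replicate block edgeR called 6, beside 0.555% of all genes.

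**Figure D3:**
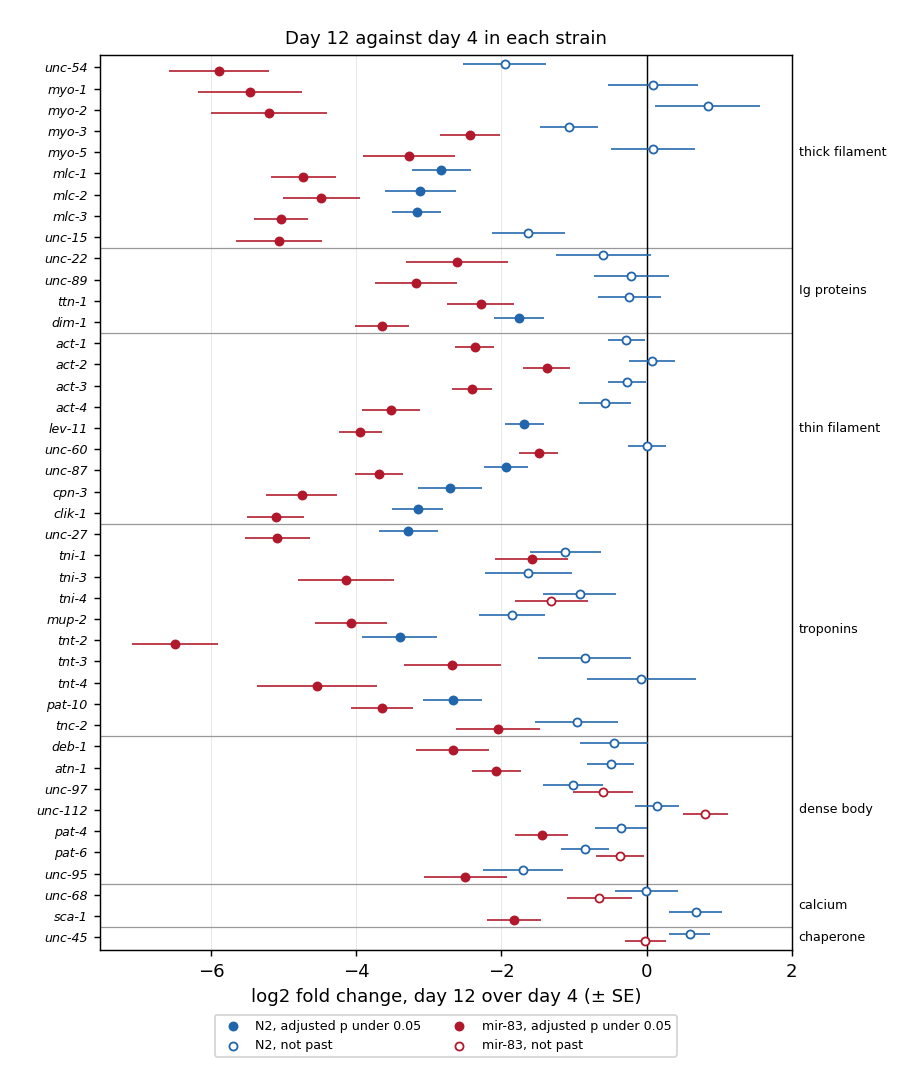
Log2 fold change of day 12 over day 4 with its standard error for all 42 genes, grouped by role, in N2 and in mir-83; filled points passed an adjusted p of 0.05. In N2, 11 genes are filled and in mir-83, 36, all to the left of 0.

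In mir-83, 36 of the 42 muscle genes fell between day 4 and day 12 (85.7%) and none rose. Of all genes, 15.2% fell and 12.8% rose in edgeR. The 36 changes ran from -6.50 to -1.38, with adjusted p from 0.00144 to 0.0476. The median of the 42 was -2.93, beside 0.05 over all genes, and was -4.07 within replicate 1 and -2.29 within replicate 2. Both day 12 libraries lay below both day 4 libraries for 37 genes and above them for unc-112, while 32.7% of all genes lay below and 33.8% above.

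All 9 thick filament genes fell, with a median of -5.04. unc-54 fell by 5.89 ± 0.69 (adjusted p = 0.00259), from 1083 and 1119 CPM to 6.25 and 43.9. All 4 immunoglobulin-domain genes fell, with dim-1 at -3.64 ± 0.37. All 9 thin filament genes fell, from clik-1 at -5.11 ± 0.39 to act-2 at -1.38 ± 0.32. Of the troponin genes 9 of 10 fell, with tnt-2, from 425 and 410.2 CPM to 2.18 and 8.02, at -6.50 ± 0.59, and tni-4 was at -1.31 ± 0.50 (adjusted p = 0.0813). Of the attachment genes 4 of 7 fell (deb-1, atn-1, pat-4 and unc-95), with deb-1 at -2.67 ± 0.51.

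The 6 genes that did not pass were tni-4, unc-97, unc-112, pat-6, unc-68 and unc-45. sca-1 fell by 1.83 ± 0.37 (adjusted p = 0.0118) in mir-83. unc-45 was at -0.02 ± 0.28 with TMM; with plain library sizes, where the median of all genes was 1.01, it was at 0.95 (adjusted p = 0.0190), and unc-112 was also higher. Scaled in that way, 26 muscle genes were lower and 2 higher, beside 6.17% and 37.3% of all genes, and their median was -1.97, which is -2.98 from the median of all genes, the same distance as with TMM. Leaving out mir-83 day 4 replicate 1 left 20 genes lower, beside 3.11% of all genes, and leaving out mir-83 day 4 replicate 2 left 27, beside 4.55%. Without mir-83 day 12 replicate 1, the lowest library for most of these genes, 30 were lower and unc-112 was higher, beside 8.29% and 7.62% of all genes. DESeq2 called 37 lower and unc-112 higher, beside 18.1% and 22% of all genes, and edgeR without the replicate block called 31 lower, beside 11.6%.

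All 11 genes that fell in N2 were among the 36 that fell in mir-83, which is 11 of 11 and 11 of 36. Since 85.7% of the 42 muscle genes fell in mir-83, most of any 11 of them would be shared. The same overlap was not counted over all genes. The day 4 comparison of the strains shares the mir-83 day 4 libraries with the last comparison and the N2 day 4 libraries with the one before, so its values are not independent of either. For unc-54 the log2 fold changes were 3.02 between the strains at day 4, -1.95 with age in N2 and -5.89 with age in mir-83.

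The change with age was not shown to differ between the strains by the main test. For the difference of the strain effects, day 12 minus day 4, edgeR called 0 of 42 muscle genes and 0% of all genes. The smallest adjusted p among the 42 was 0.0586. DESeq2 called 25 lower, beside 4.64% of all genes, and edgeR with plain library sizes 5, beside 0.681%. The median of the 42 was -1.89, beside 0.08 over all genes, and was -2.41 within replicate 1 and -1.47 within replicate 2. myo-2 at -6.05 ± 1.04 and myo-1 at -5.55 ± 0.92 had the largest differences. Leaving out mir-83 day 12 replicate 2 gave 21 muscle genes lower in edgeR, beside 2.77% of all genes, and leaving out replicate 1 gave 5, beside 1.44%.

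unc-60 holds transcripts for 2 different cofilins, and the sheets report them apart. The gene lies on chromosome V (WBcel235, 1475086 to 1479576, plus strand), and the reference annotation now gives the form with the shorter span of the 2 in the second sheet to another gene, F53E2.2 (1475086 to 1476784). That form read 147 CPM for N2 and 375 CPM for mir-83 at day 4, then 149 and 137 CPM at day 12. The form that keeps the name unc-60 read 54.4 and 97.3 CPM at day 4 and 19.8 and 17.5 at day 12, in the same order of strains. Its share of the gene's reads was 27% and 20.6% at day 4 and 11.8% and 11.4% at day 12.

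The first sheet holds 5 transcripts of the gene, summed here into the 3 forms C38C3.5a, C38C3.5b and C38C3.5c. C38C3.5c was lower at day 12 than at day 4 in both strains. It read 39.0 CPM for N2 and 103 CPM for mir-83 at day 4, then 11.7 and 8.46 CPM at day 12, or 9.02%, 7.59%, 2.21% and 1.61% of the gene's reads. C38C3.5a read 318 CPM for N2 and 1028 CPM for mir-83 at day 4, then 433 and 444 CPM at day 12. C38C3.5b read 75.5 CPM for N2 and 231 CPM for mir-83 at day 4, then 83.6 and 74.7 CPM at day 12. In each sheet 1 form was lower at day 12 than at day 4 in both strains, and the other forms were lower in mir-83 but not in N2. The forms of one sheet were not matched to those of the other. Each sheet has 1 library per group, so these values have no replicate of their own. The sources used here do not give which form encodes the cofilin made in muscle.

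**Figure D4:**
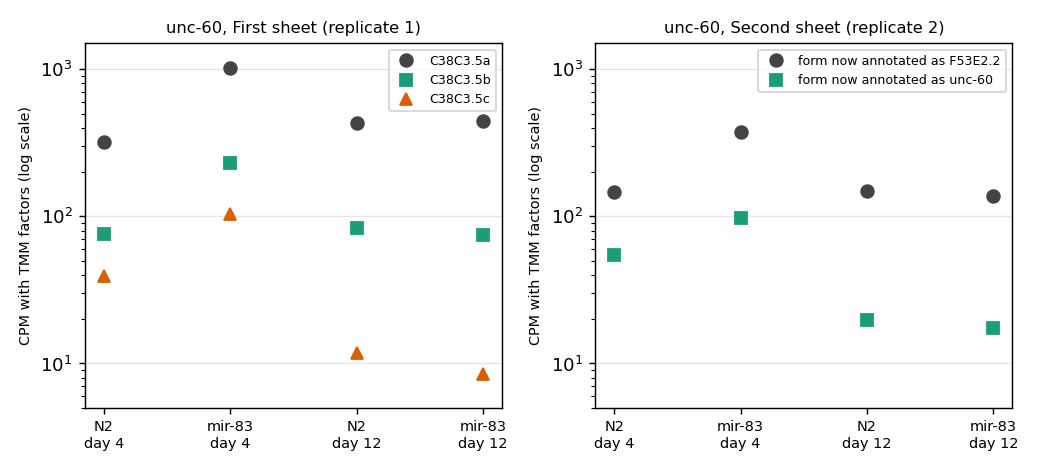
Level of each unc-60 transcript in each group, in TMM-scaled CPM on a log axis, by sheet; each point is 1 library. C38C3.5c in the first sheet and the form still named unc-60 in the second lie lower at day 12 than at day 4 in both strains.

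The change with age in N2 was more negative in shorter genes, whose coding sequences run from 426 bases (cpn-3) to 45564 bases (ttn-1). Over the 42 genes the Spearman correlation of length with the log2 fold change was 0.49, and over 15730 genes with a coding length it was 0.295; genes of 1 set of libraries are not independent points. The median change was -0.22 in the 14 longest, -0.71 in the middle 14 and -1.70 in the 14 shortest genes. In mir-83 the correlation was 0.049 and the medians were -2.64, -3.58 and -3.79. For the strains at day 4 it was 0.078, with medians of 1.61, 1.81 and 1.48, and at day 12 it was -0.595, beside -0.262 over all genes. The part of RNA quality or library preparation in these relations was not tested.

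**Figure D5:**
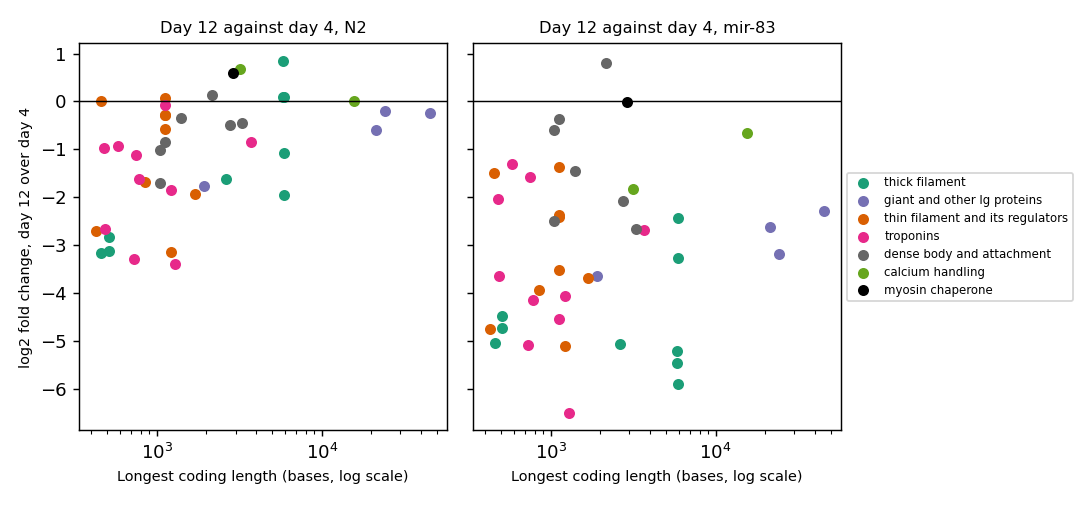
Log2 fold change of each of the 42 genes against the length of its coding sequence in bases, on a log axis, for day 12 over day 4 in N2 (left) and in mir-83 (right), with a colour for each role. In N2 the shorter genes lie lower with age, at a median of -1.70 for the 14 shortest and -0.22 for the 14 longest.

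A list of 50 further genes for attachments, channels, receptors, muscle transcription factors and energy supply was counted the same way. At day 4, 3 of 50 were higher in mir-83 (zyx-1, csq-1 and pygl-1), none was lower, and the median was 0.21. That share of 6% is near the 4.44% of all genes that were higher. csq-1, for calsequestrin, which stores calcium in the sarcoplasmic reticulum, was at 1.95 ± 0.44 (adjusted p = 0.0412). pygl-1, for glycogen phosphorylase, was at 2.53 ± 0.40 and zyx-1, for zyxin, a dense body protein, at 1.89 ± 0.38.

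With age in N2, 1 of the 50 fell, csq-1 at -2.91 ± 0.46, and the median was -0.23; that share of 2% is near the 2.4% of all genes that fell. In mir-83, 12 of 50 fell (24%) and none rose, beside 15.2% of all genes that fell, and the median was -0.52. The largest of these were argk-1, for arginine kinase, at -5.65 ± 1.24, csq-1 at -4.46 ± 0.50, unc-52, for perlecan of the basement membrane, at -3.60 ± 0.68, and zyx-1 at -3.56 ± 0.41. At day 12 none of the 50 passed between the strains in edgeR, and neither did any other gene. The 2 lists differ in size and make-up, and the difference between them was not tested.

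Markers of other cells moved in the same comparisons. At day 4, 5 of 9 intestine markers were higher in mir-83. Among them were vit-2, a yolk protein gene, at 2.58 and act-5, the intestinal actin, at 2.34. Of the same list, ges-1 (0.67), elt-2 (0.09), elt-7 (0.32) and pept-1 (0.72) did not pass. Summed, the intestine markers read 12731 and 11866 CPM in N2 and 61940 and 81156 CPM in mir-83. Most of that came from the yolk protein genes vit-2 and vit-6. The median of the 9 markers was 46.4 and 41.4 CPM in N2 and 83.9 and 89.2 CPM in mir-83. Of 10 neuron markers 2 were higher and of 10 germline markers 3. None of 8 hypodermis and cuticle markers or of 7 sperm markers passed in edgeR. The smallest adjusted p-values were 0.0654, for col-119, and 0.161, for fer-1. Of 8 early embryo markers 3 were lower, with summed levels of 26.3 and 28.3 CPM in N2 and 3.98 and 6.65 CPM in mir-83. The summed hypodermis markers read 503 and 3251 CPM in N2 and 7409 and 8540.5 CPM in mir-83, which shows the 2 N2 replicates apart.

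With age in mir-83, 8 of 9 intestine, 3 of 8 hypodermis and cuticle, and 5 of 10 neuron markers fell, and 5 of 8 early embryo markers rose. Of 10 germline markers 3 fell (gld-1, glh-1 and cgh-1) and 3 rose (htp-3, syp-1 and rec-8). No sperm marker of 7 passed in edgeR, where the smallest adjusted p was 0.0777, for peel-1. Summed intestine markers at day 12 read 813 and 2307 CPM in mir-83 and 2485 and 4022 CPM in N2. With age in N2, 3 of 9 intestine markers fell, and 1 germline and 1 sperm marker rose. The day 4 excess was therefore measured in part of the intestine, neuron and germline markers as well as in muscle genes, while part of the early embryo markers was lower. The fall with age in mir-83 was measured in 8 of 9 intestine markers and in part of the hypodermis, neuron and germline markers. Other germline markers and part of the early embryo markers rose with age in mir-83. The part of these markers and of the TMM factors in the muscle results was not tested.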

How the data were processed

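The deposited values are counts of reads per transcript, unnormalised, in 2 sheets: the first with replicate 1 and WormBase sequence names and the second with replicate 2, RefSeq accessions and gene names. Per the submitters' processing notes, Bowtie2, edgeR and the build ce11 were used, with no version or role stated; how reads were counted, and whether by strand, is not stated there.

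Transcripts were summed per WormBase gene of WBcel235, the assembly that ce11 names. Unmatched lines, 207 of 30443 in the first sheet (0.0837% of reads) and 274 of 29023 in the second (0.241%), stayed out. Muscle genes were taken from the second sheet by its gene name, in 107 lines.

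Counts were tested with edgeR 4.0.16 in R 4.3.3 (filterByExpr, TMM, glmQLFit, glmQLFTest) on the 8 libraries together, fitting 4 group means and a replicate block, since each sheet has its own annotation; 3 residual degrees of freedom remained. P-values are two-sided and Benjamini-Hochberg adjusted over all 15848 genes within each of 5 comparisons. SE is of the log2 fold change. Same-numbered libraries deviated together from their group means, at correlations of 0.118 to 0.415 across genes. The code was tested on simulated data.

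The muscle genes, the other lists and the tests were chosen with earlier results of these data known. Per-library values are given, in each role, for the 3 genes with the highest mean CPM over all libraries and those with the largest and smallest log2 fold change between the strains at day 4, and myo-1 and tnt-4 at day 12 were added after their values were seen. Up to 4 other muscle genes per comparison are named by size of change. Alternatives were RLE size factors, plain library sizes, no filter, no replicate block, each library left out, DESeq2 1.42.0 and an adjusted p under 0.01.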

Additional observations from a re-analysis of the deposited data

How the results depend on the processing

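Without the replicate block, 9 muscle genes in place of 18 were higher in mir-83 at day 4. The share of all genes was 1.29% in place of 4.44%. With age in N2, 6 in place of 11 fell, beside 0.555% of all genes in place of 2.4%. With age in mir-83, 31 in place of 36 fell, beside 11.6% of all genes in place of 15.2%. The block changed no other count of muscle calls. DESeq2 called 30 higher at day 4, 1 higher with age in mir-83 (unc-112) and 25 lower for the difference of the strain effects. The shares of all genes were 9.5%, 22% and 4.64% in the same order. With plain library sizes 1 gene (unc-112) was lower at day 4, 2 were higher with age in mir-83 and 5 were lower for the difference. Of all genes, 24.1%, 37.3% and 0.681% were called in the same order. With that scaling unc-45 with age in mir-83 went from -0.02 to 0.95, as the median of all genes moved from 0.05 to 1.01. The causes of the other shifts were not tested. With no filter 10 were lower for the difference, beside 1.22% of all genes. At an adjusted p under 0.01, 0 were higher at day 4 and 0 fell in N2 in edgeR, beside 0% of all genes in both, while 26 fell in mir-83, beside 5.63%. Leaving out 1 library at a time gave 0 to 28 higher at day 4, 0 to 17 lower in N2, 20 to 36 lower and 0 to 1 higher in mir-83, and 0 to 21 lower for the difference. The median log2 fold change of the 42 kept its sign in these alternatives for every comparison except the strains at day 12, where it ran from -0.68 to 0.15. It ran from 0.86 to 2.03 for the strains at day 4, from -1.26 to -0.58 in N2, from -3.83 to -1.97 in mir-83 and from -2.40 to -1.03 for the difference. Depth limits the least counted genes most: the lowest count of a muscle gene in a library was 15 reads.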
